A study of Homo sapiens with 7 samples.

Results

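The enzymes and proteins of fatty acid oxidation and of ketone body formation were followed by 37 genes in Huh-7, a human cell line from a hepatocellular carcinoma. The genes were taken by symbol from the 58174 genes of the deposited table, and each symbol was found once. They comprise a fatty acid binding protein, acyl-CoA synthetases, the carnitine shuttle, acyl-CoA dehydrogenases, the later enzymes of the mitochondrial and peroxisomal spirals, electron transfer flavoprotein, ketone body enzymes and 1 coactivator. The 7 libraries of total RNA were made from cells harvested 72 h after transfection, with a control siRNA in 3 of them (siC) and with pooled siRNAs against IGF2BP1, an RNA-binding protein of fetal tissues and tumors, in 4 (siIGF2BP1). Both groups carried the Huh-7 background and a transfection, in medium with serum, and no untransfected cells were compared. Values are FPKM, fragments scaled to gene length and library size.

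Long-chain fatty acids are bound in the cytosol, coupled to coenzyme A by acyl-CoA synthetases, and carried into mitochondria as carnitine esters. There, acyl-CoA dehydrogenases open each round of chain shortening and pass electrons to electron transfer flavoprotein, while hydratases, hydroxyacyl-CoA dehydrogenases and thiolases complete the round. Peroxisomes shorten very long and branched chains with oxidases of their own. In the liver, which is the main source of ketone bodies, acetyl-CoA from this route feeds their synthesis during fasting, and the nuclear receptor PPAR-alpha is a known activator of many of these genes.

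The targeted transcript was checked first. IGF2BP1 stood at 81.9, 80.4 and 84.4 FPKM in siC replicates 1 to 3 and at 15.6, 15.7, 16.6 and 15.3 FPKM in siIGF2BP1 replicates 1 to 4, which is 19.2% of the siC mean (log2 change -2.37, limma adjusted p = 1.16e-05). Libraries held from 12826550 to 33212205 reads on genes. The 10 hepatocyte-lineage markers examined, among them ALB and HNF4A, summed to between 5868 and 7306 FPKM in siC and between 6622 and 6793 FPKM in siIGF2BP1, a sum that AFP and ALB dominate. None of the 10 passed the threshold with all libraries, and their differences ran both ways, with TF at 0.79 (limma adjusted p = 0.0529), TTR at -0.49 (adjusted p = 0.133) and APOB at -0.32 (adjusted p = 0.0986). In the fit without siC replicate 3, markers passed in both directions, among them TF upward and TTR and FGB downward. Of 14 markers of other cell types, only COL1A2, LUM, CD14 and PECAM1 reached 1 FPKM in any library. The 5 fibroblast and stellate markers summed to 8.93 to 9.38 FPKM in siC and 7.46 to 8.31 FPKM in siIGF2BP1, and the 4 endothelial markers, 1 of them at 0 in all libraries, to 2.59 to 3.07 and 2.86 to 3.30 FPKM. The 5 leukocyte markers summed to 0.462 to 1.29 FPKM in siC and 2.09 to 2.69 FPKM in siIGF2BP1, nearly all from CD14, which was higher in all siIGF2BP1 libraries (limma adjusted p = 0.0338). CD14 averaged 0.892 FPKM in siC and 2.25 FPKM in siIGF2BP1. It thus met the filter for testing, a mean of 1 FPKM, only through siIGF2BP1, and its p-value is a description only. The part of these markers in the results was not tested. The library siC replicate 3 stood apart from the other libraries. The SD of its log2 deviations from the group mean was 0.466, beside 0.296 to 0.379 in the others. Its deviations from the siC mean ran with the GC content of genes (rho = -0.43 across 14711 genes, given as a description). The same rho was 0.43 and 0.30 in the other siC libraries and lay between -0.39 (replicate 2) and 0.26 in the siIGF2BP1 libraries. Deviations were taken from each group's own mean, so these values are not independent, and those of siC replicates 1 and 2 may mirror replicate 3. Whether these 2 libraries had a relation with GC content of their own cannot be told from them. In the other group, siIGF2BP1 replicate 2 had a negative rho as well. Values without siC replicate 3 are given below where they differ in call, direction or by over 1.5 times. Its part, and that of GC content, in the results was not tested.

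Of the 37 genes, 33 averaged 1 FPKM or more across the libraries and were tested with limma on log2(FPKM + 0.1). ACSL5, ACADL, BDH1 and PPARGC1A lay below that mean. At an adjusted p of at most 0.01, the FDR limit named in the study, 1 gene rose after IGF2BP1 depletion, the acyl-CoA synthetase gene ACSL1, and 1 fell, the acyl-CoA dehydrogenase gene ACADSB. Among all 14839 genes tested, 1.65% rose and 2.28% fell. The labels do not say whether the libraries came from separate cultures, so p-values measure the spread between these libraries, which may be technical. In RNA from whole cultures, fewer cells of a type and less RNA per cell cannot be told apart. Without siC replicate 3, the fit called FABP1 and ACSL1 higher and CPT2, ACADVL and ACADSB lower, against 3.59% and 6.67% of all genes. The background was thus higher as well.

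**Figure D1:**
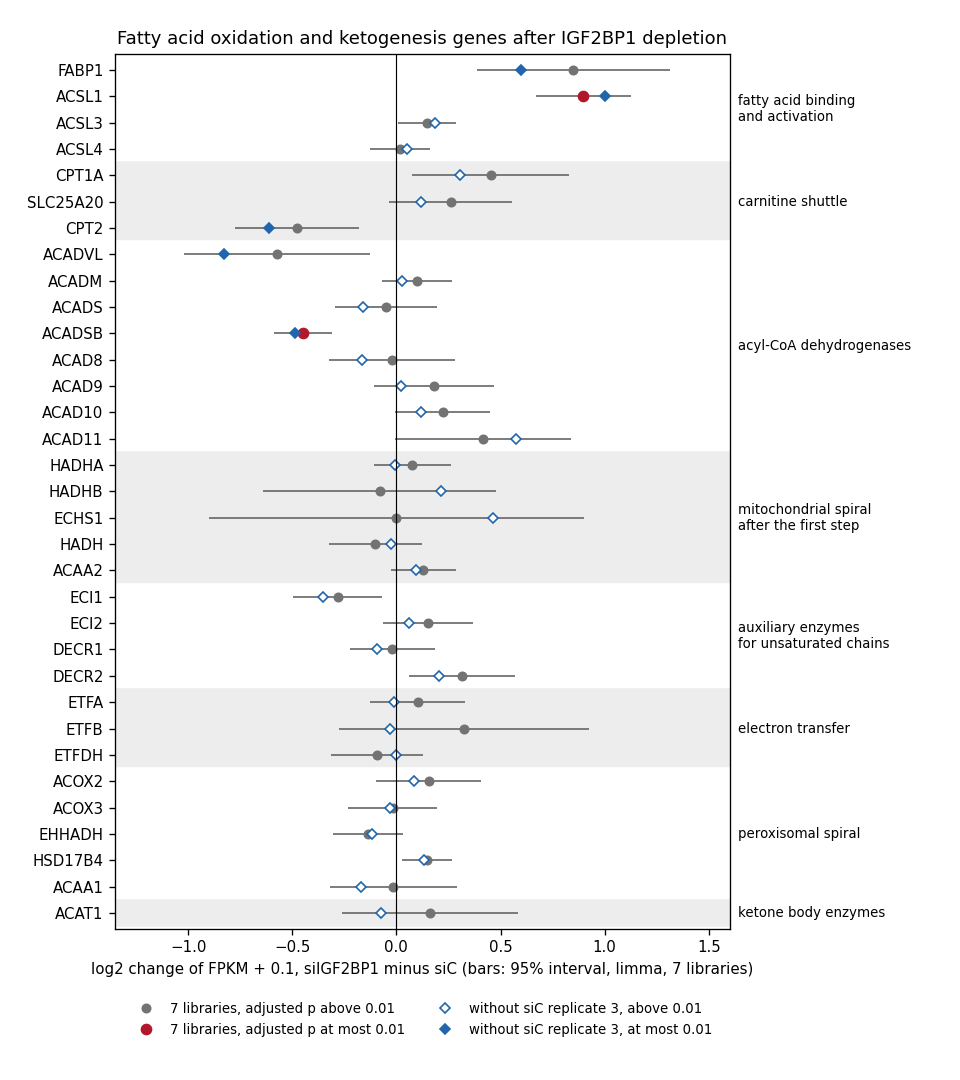
Log2 change (siIGF2BP1 minus siC) of the 33 tested genes of fatty acid oxidation and ketogenesis, grouped by role, as circles with 95% confidence intervals for all 7 libraries and as diamonds without siC replicate 3. Red circles and filled diamonds passed the threshold. ACSL1 lies at 0.90 and ACADSB at -0.45, while the intervals of most other genes cross 0 and those of ECHS1, ETFB and HADHB are wide with all 7 libraries.

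Fatty acid binding and activation held the gene that rose, ACSL1, and the highest summed level of all roles. FABP1, the liver fatty acid binding protein (ENSG00000163586, chromosome 2, 88122982 to 88128062, minus strand, GRCh38), stood at 32, 32.4 and 19.0 FPKM in siC and at 46.1, 44, 50.9 and 54.8 FPKM in siIGF2BP1. All siIGF2BP1 libraries lay above all siC libraries, and siC replicate 3 was the lowest of them. The siC mean of 27.8 ± 7.61 FPKM (SD, n = 3) stood against 48.9 ± 4.88 FPKM (SD, n = 4) after depletion, a log2 difference of 0.85 (SE 0.196, 95% interval 0.387 to 1.31) that missed the threshold (limma adjusted p = 0.0358). Without siC replicate 3 the difference was smaller, 0.60, and passed (adjusted p = 0.00645).

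ACSL1, the main long-chain acyl-CoA synthetase of liver (ENSG00000151726, chromosome 4, 184755595 to 184826818, minus strand), stood at 4.69, 4.75 and 5.87 FPKM in siC and at 9.81, 10.1, 9.33 and 8.95 FPKM in siIGF2BP1. The groups were far apart, with the highest siC value, again replicate 3, below the lowest siIGF2BP1 value. The means were 5.11 ± 0.664 FPKM (SD, n = 3) and 9.56 ± 0.524 FPKM (SD, n = 4), so that ACSL1 rose to 187% of siC (log2 change 0.90, SE 0.0968, 95% interval 0.669 to 1.13, limma adjusted p = 0.00249). Between 508 and 1195 reads per library lay behind these values. When the libraries were left out in turn, the call was kept in 1 of 7 fits, the one without siC replicate 3 (log2 change 1.0, adjusted p = 0.000474), and in the others the adjusted p reached up to 0.0159.

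The other synthetases differed in level and in response. ACSL4, which favours arachidonic acid, had the highest level of all 37 genes, with 197, 202 and 214 FPKM in siC and 210, 205, 207 and 206 FPKM in siIGF2BP1. These groups overlapped, and the log2 difference was 0.017 (95% interval -0.128 to 0.162), or 0.052 without siC replicate 3. ACSL3, an enzyme of the endoplasmic reticulum and of lipid droplets, stood at 53.5, 54.0 and 58.1 FPKM in siC and at 60.6, 64.0, 60.1 and 60.0 FPKM in siIGF2BP1. Its groups did not overlap, and the difference of 0.15 missed the threshold (limma adjusted p = 0.17). ACSL5, an isoform of mitochondria and the endoplasmic reticulum, lay at 0.53, 0.45 and 0.412 FPKM in siC and at 0.964, 0.869, 1.62 and 1.22 FPKM in siIGF2BP1. Those groups were also separate, on 24 to 91 reads per library, and the fit without a filter on low values gave an adjusted p of 0.0616 for a mean at 252% of siC. Summed over the 5 genes of this role, the level was 293 ± 5.0 FPKM in siC and 328 ± 2.63 FPKM in siIGF2BP1, of which ACSL4 made up the greater part.

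**Figure D2:**
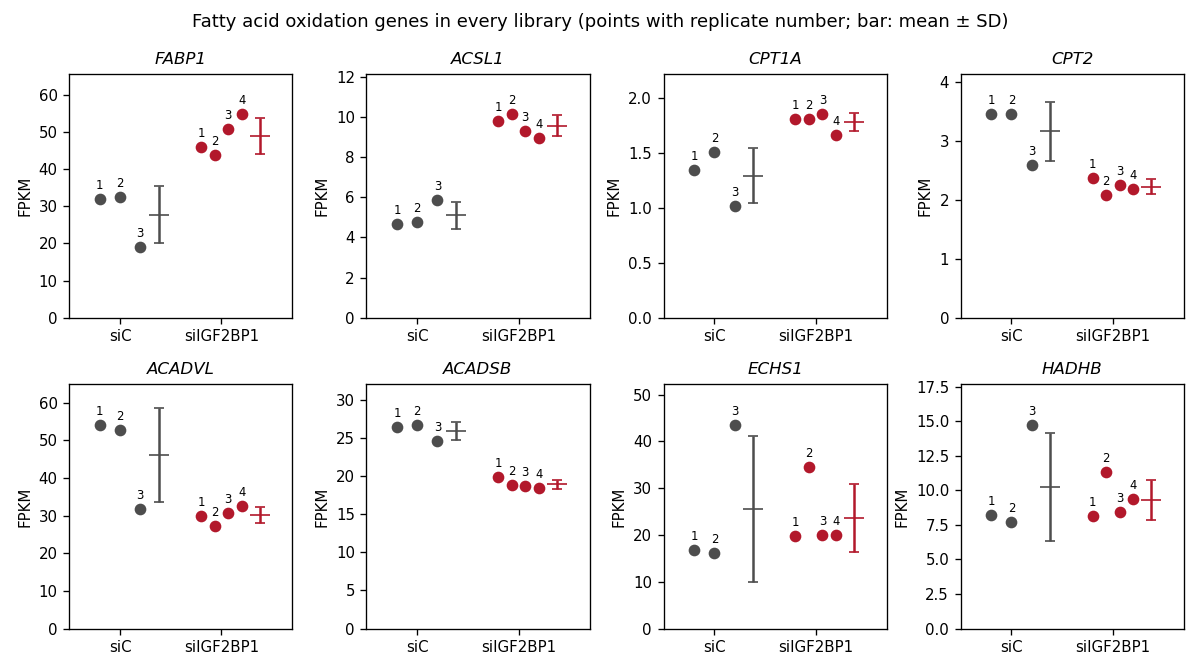
FPKM in each library (points, numbered by replicate; bars give the mean ± SD) of selected genes of binding, activation, transport and oxidation, siC (n = 3) beside siIGF2BP1 (n = 4). ACSL1 and FABP1 are separate between groups in the upward direction and CPT2 and ACADSB in the downward direction, whereas for ACADVL siC replicate 3 lies at 31.6 FPKM, among the siIGF2BP1 libraries.

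In the carnitine shuttle none of 3 genes passed the threshold with all libraries, and their differences did not share a direction. CPT1A, the outer-membrane transferase that sets the rate of entry into mitochondria, stood at 1.35, 1.51 and 1.02 FPKM in siC and at 1.81, 1.81, 1.85 and 1.67 FPKM in siIGF2BP1. The groups were separate, on 92 to 317 reads, with a log2 difference of 0.45 (95% interval 0.0752 to 0.831, limma adjusted p = 0.127). SLC25A20, the carnitine-acylcarnitine carrier, stood at 32.1, 31.2 and 23.4 FPKM in siC and at 32.8, 31.5, 36.1 and 37.2 FPKM in siIGF2BP1, so that the groups overlapped (log2 difference 0.26, 95% interval -0.0347 to 0.557, and 0.12 without siC replicate 3). CPT2, the inner-membrane transferase that releases acyl-CoA in the matrix, had 3.45, 3.45 and 2.59 FPKM in siC and 2.38, 2.09, 2.26 and 2.18 FPKM in siIGF2BP1. Every siIGF2BP1 library lay below every siC library, with siC replicate 3 nearest to them. The log2 difference was -0.48 (SE 0.127, 95% interval -0.776 to -0.18, limma adjusted p = 0.055) and, without siC replicate 3, -0.61 (adjusted p = 0.00552). CPT2 (ENSG00000157184, chromosome 1, 53196792 to 53214197, plus strand) overlaps CZIB on the opposite strand, and it is not stated whether reads were counted by strand.

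Among the acyl-CoA dehydrogenases, which open each round, the fall was at ACADSB. ACADSB acts on short branched chains and is best known for a step of isoleucine breakdown (ENSG00000196177, chromosome 10, 123008979 to 123058290, plus strand). It stood at 26.4, 26.7 and 24.6 FPKM in siC and at 19.8, 18.8, 18.7 and 18.4 FPKM in siIGF2BP1. The groups were separate, and each was narrow. From 25.9 ± 1.16 FPKM (SD, n = 3) the level fell to 18.9 ± 0.62 FPKM (SD, n = 4), 73.1% of siC (log2 change -0.45, SE 0.0589, 95% interval -0.588 to -0.311, limma adjusted p = 0.00503). As for ACSL1, the call was kept in 1 of the 7 fits with a library left out, the one without siC replicate 3 (-0.49, adjusted p = 0.00122), with an adjusted p of up to 0.0307 in the others. When the trend of each library with GC content was removed, the difference was -0.43 (adjusted p = 0.0213), nearly as large but past the threshold no longer.

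ACADVL, the very-long-chain dehydrogenase of the inner mitochondrial membrane (ENSG00000072778, chromosome 17, 7217125 to 7225266, plus strand), stood at 54.0, 52.7 and 31.6 FPKM in siC and at 29.8, 27.3, 30.8 and 32.6 FPKM in siIGF2BP1. siC replicates 1 and 2 lay well above all siIGF2BP1 libraries, and siC replicate 3 lay among them. With all libraries the log2 difference was -0.57 (95% interval -1.02 to -0.127, limma adjusted p = 0.106), and without siC replicate 3 it was -0.83 (adjusted p = 0.00115), so that 1 library decided the call. ACADVL overlaps DLG4 on the opposite strand.

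The medium-chain dehydrogenase gene ACADM, which in people is the one most often affected in inherited disorders of this route, was nearly level. It stood at 10.9, 11.1 and 9.52 FPKM in siC and at 11.2, 11.5, 11.4 and 10.9 FPKM in siIGF2BP1, with overlapping groups and a log2 difference of 0.099 (95% interval -0.0693 to 0.266), or 0.029 without siC replicate 3. ACADS, of short chains, ACAD8, of valine breakdown, and ACAD9, which also serves the assembly of complex I, differed by -0.049, -0.020 and 0.18 on the log2 scale, with adjusted p-values of 0.822, 0.948 and 0.418. These differences were -0.16, -0.17 and 0.021 without siC replicate 3. ACAD10 and ACAD11, less studied relatives, differed by 0.22 and 0.42 (adjusted p = 0.204 and 0.2), and only ACAD10 had separate groups. The difference of ACAD10 was 0.12 without siC replicate 3. ACADL, a long-chain dehydrogenase, had 3 to 4 reads in each siC library and 0 to 1 in each siIGF2BP1 library. These groups were separate in the downward direction, on too few reads for a fold, and the fit without a filter gave an adjusted p of 0.295. Summed over the 9 dehydrogenase genes, the level was 125, 125 and 91.7 FPKM in siC and ran from 91.2 to 96.2 FPKM in siIGF2BP1, with ACADVL as the most abundant gene in each siC library.

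None of the 5 genes for the later steps of the mitochondrial spiral passed the threshold. HADHA, the alpha subunit of the trifunctional protein, stood at 45.5, 45.9 and 38.3 FPKM in siC and at 45.1, 44.1, 45.5 and 47.1 FPKM in siIGF2BP1 (log2 difference 0.077, 95% interval -0.109 to 0.263, and -0.0083 without siC replicate 3). HADHB, the beta subunit of the same complex, was lower in level and stood at 8.25, 7.69 and 14.7 FPKM in siC and at 8.14, 11.4, 8.45 and 9.4 FPKM in siIGF2BP1. Its highest values were those of siC replicate 3 and siIGF2BP1 replicate 2, and its interval was wide (-0.638 to 0.481 around -0.079, with a difference of 0.21 without siC replicate 3). ECHS1, the short-chain hydratase, singled out after its values were seen, had the same pair of libraries high, with 16.9, 16.2 and 43.5 FPKM in siC and 19.8, 34.5, 20.0 and 20.0 FPKM in siIGF2BP1.

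For ECHS1 the group means were 25.5 ± 15.6 FPKM (SD, n = 3) and 23.6 ± 7.27 FPKM (SD, n = 4), and no difference could be read from the 7 libraries (95% interval -0.9 to 0.899). Without siC replicate 3 the log2 difference was 0.46 (adjusted p = 0.214). With both of these libraries left out, a choice made after the data were seen, it was 0.27, a description only, since its own extreme values were thereby removed. In that fit 4 genes passed upward (FABP1, ACSL1, ACSL3 and ECHS1) and 3 downward (CPT2, ACADVL and ACADSB), against 3.79% and 7.03% of all genes. For each of these genes siC replicate 3 stood farthest from the other siC libraries. For ACSL3, siIGF2BP1 replicate 2 was also the highest library. These calls therefore carry the same limit as that of ECHS1 and are a description only. HADH, the short-chain hydroxyacyl-CoA dehydrogenase, and ACAA2, the mitochondrial thiolase, differed by -0.10 and 0.13 (limma adjusted p = 0.569 and 0.28), and both had overlapping groups. That of HADH was -0.024 without siC replicate 3.

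The auxiliary enzymes prepare unsaturated chains for the spiral. ECI1, a mitochondrial isomerase, stood at 20.1, 21.7 and 18.1 FPKM in siC and at 17.5, 14.6, 16.7 and 16.8 FPKM in siIGF2BP1, separate groups with a log2 difference of -0.28 (limma adjusted p = 0.1). DECR2, the peroxisomal dienoyl-CoA reductase, stood at 3.17, 3.13 and 2.48 FPKM in siC and at 3.91, 3.55, 3.47 and 3.66 FPKM in siIGF2BP1, separate in the other direction with a difference of 0.31 (adjusted p = 0.118). Both missed the threshold. ECI2, a second isomerase, and DECR1, the mitochondrial reductase, differed by 0.15 and -0.020, with overlapping groups. Without siC replicate 3 the differences of DECR2, ECI2 and DECR1 were 0.20, 0.062 and -0.091.

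Electron transfer flavoprotein hands electrons from the dehydrogenases to the respiratory chain, and its subunits ETFA and ETFB act as a pair. ETFA was among the most abundant of the 37 genes, at 65.7, 65.2 and 51.4 FPKM in siC and 66.0, 65.0, 62.6 and 65.8 FPKM in siIGF2BP1. ETFB stood at 9.59, 9.45 and 4.49 FPKM in siC and at 9.43, 9.41, 9.34 and 9.07 FPKM in siIGF2BP1. In both subunits siC replicate 3 was the lowest library, and the other libraries lay close together. The log2 difference of ETFB was 0.32 (95% interval -0.277 to 0.926) with all libraries and -0.032 without siC replicate 3, and that of ETFA was 0.10 and -0.014. ETFDH, the oxidoreductase that passes the electrons on to ubiquinone, differed by -0.094 (limma adjusted p = 0.601), or -0.00098 without siC replicate 3.

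**Figure D3:**
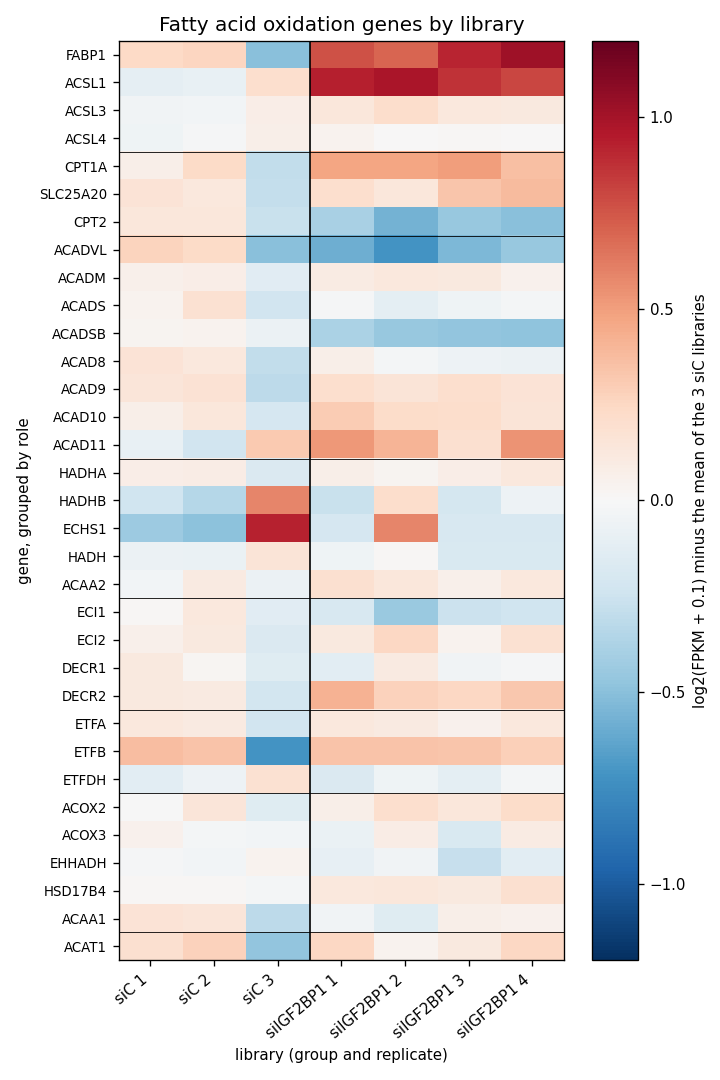
Log2 of FPKM + 0.1 relative to the siC mean for each of the 33 tested genes (by role) in each of the 7 libraries (columns). siC replicate 3 departs from its 2 companions in many genes, with ETFB, FABP1 and ACADVL low and ECHS1 and HADHB high, and siIGF2BP1 replicate 2 is also high at ECHS1 and HADHB.

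The departure of siC replicate 3 reached many of the 33 tested genes. Of these, 24 lay lower in this library than in the mean of siC replicates 1 and 2, by up to 1.07 on the log2 scale at ETFB, while ECHS1 lay 1.39 and HADHB 0.88 higher. The same count over all genes tested was not made, so nothing particular to these genes is read from it. The median of the 33 genes relative to the siC mean was 0.058, 0.106 and -0.142 in siC replicates 1 to 3 and 0.074, 0.127, 0.065 and 0.121 in the siIGF2BP1 libraries. The median log2 difference of the 33 genes was 0.099 beside -0.017 over all genes tested, with 19 genes above 0 and 14 below. Without siC replicate 3 it was 0.021 beside -0.031, with 17 above 0 and 16 below.

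Of the peroxisomal spiral, none of 5 genes passed the threshold. EHHADH, the bifunctional enzyme of straight chains and a known target of PPAR-alpha in rodents, stood at 11.7, 11.6 and 12.2 FPKM in siC and at 11, 11.4, 9.73 and 10.8 FPKM in siIGF2BP1, a small separation (log2 difference -0.14, 95% interval -0.306 to 0.0306). HSD17B4, the bifunctional enzyme of branched and very long chains, stood at 25.2, 25.2 and 24.5 FPKM in siC and at 27.3, 27.4, 27.1 and 28.6 FPKM in siIGF2BP1, separate in the other direction (0.14, limma adjusted p = 0.125). ACOX2 and ACOX3, oxidases of branched chains, and ACAA1, the peroxisomal thiolase, differed by 0.16, -0.018 and -0.015, and their groups overlapped. Leaving out siC replicate 3 gave 0.085, -0.033 and -0.17.

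Ketone body enzymes were measured by ACAT1 and BDH1. ACAT1, the mitochondrial thiolase that joins acetyl-CoA units, stood at 10.9, 11.5 and 6.82 FPKM in siC and at 11.3, 9.73, 10.3 and 11.2 FPKM in siIGF2BP1. The groups overlapped, and the log2 difference was 0.16 (95% interval -0.262 to 0.586), or -0.073 without siC replicate 3, its lowest library. BDH1, which interconverts acetoacetate and hydroxybutyrate, was near the floor, at 0.211, 0.236 and 0.112 FPKM in siC and 0.418, 0.275, 0.431 and 0.296 FPKM in siIGF2BP1. Its groups were separate on 14 to 69 reads, and the fit without a filter gave 0.68 (limma adjusted p = 0.316). PPARGC1A, the coactivator that raises oxidation and gluconeogenesis in fasted liver, had 13 to 27 reads, with 0.0927, 0.0775 and 0.134 FPKM in siC and 0.122, 0.103, 0.0903 and 0.142 FPKM in siIGF2BP1, which overlapped.

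By weaker criteria the 33 tested genes stood close to the background in the downward direction. At an unadjusted p under 0.05, 6 genes were higher (FABP1, ACSL1, ACSL3, CPT1A, DECR2 and HSD17B4), which is 18.2%, beside 11.0% of all genes, and 4 were lower (CPT2, ACADVL, ACADSB and ECI1), which is 12.1%, beside 14.8%. Groups that did not overlap were found in 7 genes upward (those 6 and ACAD10), which is 21.2%, beside 11.9% of all genes, and in 4 downward (CPT2, ACADSB, ECI1 and EHHADH), beside 15.1%. Of the 7 genes, FABP1, ACSL1, ACSL3 and CPT1A serve binding, activation and the carnitine shuttle, and only ACSL1 passed the threshold with all libraries. Among the other tested genes of these roles, CPT2 was lower with separate groups, and the groups of ACSL4 and SLC25A20 overlapped. Nothing particular to the 37 genes was tested from these shares.

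The other genes of the route were followed by 71 genes, of which 54 were tested, 17 lay below the mean of 1 FPKM and 2 of those were listed at 0 in all libraries. Of the tested genes, 3 passed the threshold, PLIN2, CROT and CREB3L3, and all rose (5.56% of the 54, beside 1.65% of all genes). None fell by limma at this threshold, beside 2.28% of all genes. At an unadjusted limma p under 0.05, 14 of the 54 were higher (25.9%, beside 11.0% of all genes). By the same criterion 4 were lower (PCCB, OXCT1, PPARA and PRKAA2), which is 7.41%, beside 14.8% of all genes. Voom on reads called 1 lower (PPARA), beside 489 of all genes tested. PLIN2, which coats lipid droplets, stood at 34.8, 34.3 and 33.9 FPKM in siC and at 53.4, 57.5, 53.5 and 56.8 FPKM in siIGF2BP1, a log2 rise of 0.68 (limma adjusted p = 0.000949) that was kept in all 7 fits with a library left out. CROT, the peroxisomal carnitine octanoyltransferase, stood at 3.07, 3.0 and 2.95 FPKM in siC and at 4.51, 4.48, 4.71 and 4.56 FPKM in siIGF2BP1. Both genes had narrow and separate groups. The rise of CROT was 0.59 (limma adjusted p = 0.00256) and was kept in 1 of the 7 fits, without siC replicate 3.

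CREB3L3, a liver transcription factor of fasting lipid metabolism, stood at 2.86, 2.74 and 2.52 FPKM in siC and at 4.06, 5.62, 5.13 and 5.09 FPKM in siIGF2BP1. All siIGF2BP1 libraries were higher, with a log2 rise of 0.85 (limma adjusted p = 0.00646) that was kept in 2 of the 7 fits with a library left out and was lost without a filter on low values (adjusted p = 0.0148). PPARA, the receptor itself, stood at 2.42, 2.64 and 2.43 FPKM in siC and at 1.92, 1.9, 1.88 and 1.71 FPKM in siIGF2BP1, all lower, with a difference of -0.41 that missed the threshold (limma adjusted p = 0.0399).

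SLC22A5, the carnitine transporter of the plasma membrane, and CRAT, carnitine acetyltransferase, differed by -0.24 and 0.087, with limma adjusted p-values of 0.468 and 0.857. ANGPTL4 and PCCB were singled out after their values were seen. ANGPTL4, a secreted inhibitor of lipoprotein lipase, stood at 0.683, 0.692 and 0.644 FPKM in siC and at 2.27, 1.42, 1.76 and 1.12 FPKM in siIGF2BP1 (log2 difference 1.13, limma adjusted p = 0.0343). All siC values of ANGPTL4 lay below 1 FPKM, so it met the filter for testing only through the siIGF2BP1 libraries. Its p-value is therefore a description only. PCCB, a subunit of propionyl-CoA carboxylase, stood at 10.6, 11 and 10.7 FPKM in siC and at 8.73, 8.57, 8.16 and 8.73 FPKM in siIGF2BP1 (-0.33, adjusted p = 0.0128). Neither pair of groups overlapped, and neither gene passed the threshold with all libraries. PCCB passed without siC replicate 3 (-0.33, limma adjusted p = 0.00659), and CRAT differed there by 0.24.

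**Figure D4:**
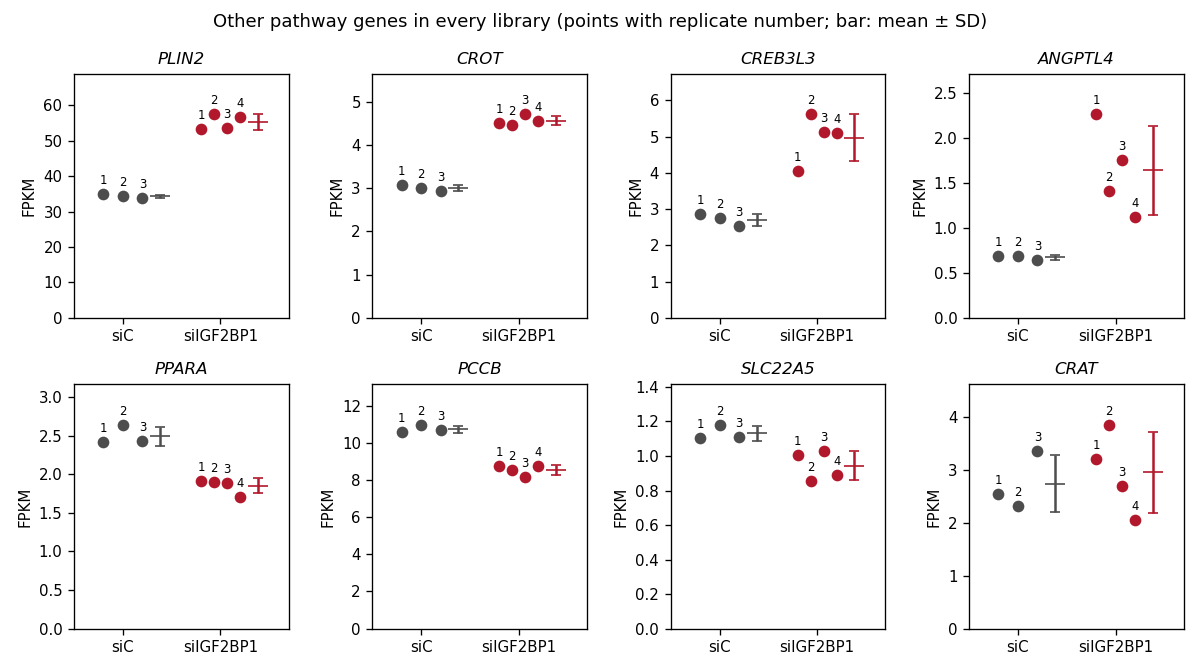
FPKM in each library (points, numbered by replicate; bars give the mean ± SD) of 8 other genes of the route, siC (n = 3) beside siIGF2BP1 (n = 4). PLIN2, CROT, CREB3L3 and ANGPTL4 lie higher in all siIGF2BP1 libraries, PPARA, PCCB and SLC22A5 lower, and the groups of CRAT overlap.

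Receptors of the PPAR family bind, with their partner RXR, a direct repeat of AGGTCA with 1 base between the repeats. Promoters of 300 bases (250 before to 50 after the start, RefSeq, GRCh38.p14) were searched on both strands for AGGTCANAGGTCA, and 30 of the 37 genes had a promoter in the table, with 43 promoters. None held the repeat without or with 1 mismatch, beside 8 and 118 of all 35116 promoters (0.0228% and 0.336%). With up to 2 mismatches 3 of 43 did (6.98%), beside 2.97% of all. The number of mismatches, after a first look that allowed more, and the sites shown were chosen with the matches in view. The sites are shown because FABP1 and ACSL1 are the genes with the largest differences upward among those tested, with ACAA2 as the remaining match. Of 94 promoters of the wider route, 1 held the repeat exactly (1.06%, ACBD3, whose log2 difference of 0.22 missed the threshold, limma adjusted p = 0.126, or 0.0044 without siC replicate 3), 2 with up to 1 mismatch (2.13%, with CREB3L3, which rose) and 5 with up to 2 (5.32%, with ACSL6, CD36 and SLC27A2). ACBD3 and CREB3L3 are shown as the closest matches. Capitals mark the match, which lies on the strand opposite to the gene in FABP1 and ACSL1, and sequences are written 5′ to 3′ along the gene.
FABP1, chr2:88128110-88128138, minus strand: acagctgcTGACCTCTGGCCGctattcga
ACSL1, chr4:184805647-184805675, minus strand: tcggcatgTGACTTGTGCCCTgagagacc
ACAA2, chr18:49813589-49813617, minus strand: caggaagtAGGTGAAAGGGCAggggcgtg
ACBD3, chr1:226186726-226186754, minus strand: gtaagcggAGGTCAGAGGTCAgcaggaag
CREB3L3, chr19:4153401-4153429, plus strand: tcataagtAGGGCAGAGGTCAcggcagag
A match of this kind is a description of letters, and whether the sites are bound was not tested. ACAA2, with a match, differed by 0.13. Nothing about the receptor can be read from these matches. ACSL1 has further promoters in the table, and the one with the match lies within the gene, while FPKM per gene does not tell which start was used.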

How the data were processed

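Total RNA was extracted with TRIZOL, depleted of ribosomal RNA and made into strand-aware libraries. According to the study's methods and the submitters' processing notes, the authors used cutadapt 1.14 for clipping, HISAT2 2.1.0 for alignment to GRCh38, featureCounts 1.5.3 for gene counts over Ensembl models, and edgeR 3.18.1 (TMM) for scaling. The strand setting of the counting is not given in the sources used here, so genes that overlap others (7 of the 37 on the opposite and 8 on the same strand) are uncertain. The deposited values are FPKM per gene and library, in which 100% of values above 0 came out as whole reads (tolerance 0.02). Columns with the authors' own fold change, p-value and FDR were not used.

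Genes that averaged 1 FPKM or more were tested on log2(FPKM + 0.1) by limma with its trend option (limma 3.58.1, R 4.3.3), two-sided and with Benjamini-Hochberg adjustment over 14839 genes at 0.01. Differences are siIGF2BP1 minus siC, and this scale understates changes of low genes. Groups came from the sample titles. A count test in edgeR was not run on FPKM, and voom on the recovered reads was an alternative. Each of the 37 genes is named. Values per library were given for genes past the threshold and for a list of central genes. They were also given for ACSL3, ACSL4, ACSL5, ECI1, DECR2, ETFA, ETFB and HSD17B4, which were not on that list. Of these, ECI1, DECR2 and HSD17B4 had separate groups, while relatives with overlapping groups were given without values per library. Any other choice is marked in the text. Some genes of the wider route are not reported here. The genes, the lists and the rule were chosen with earlier results of these data known. The fit was tested on simulated data, drawn with a dispersion of 0.02, no departing library and no trend with GC content. It called 86 of 96 genes set to change 4-fold, 32 of 99 set to change 2-fold and 1 of 14646 left unchanged. These shares need not hold in the real libraries, where siC replicate 3 stood apart. A gene that missed the threshold may therefore still have changed. The numbers of reads given beside values bear on counting error only.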

Additional observations from a re-analysis of the deposited data

Results flagged for a closer look

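In groups of 4 libraries, a library was taken as far from the others where its gap to the nearest, divided by the range of the group, exceeded Dixon's critical value at the 95% level. Of 46 results examined, 2 did so, and chance alone gives about 2.3. For ECHS1, siIGF2BP1 replicate 2 was high, at 34.5 FPKM beside 19.8 to 20.0 FPKM, with a ratio of 0.99. For ACSL3 the same library was high, at 64.0 FPKM beside 60.0 to 60.6 FPKM, with a ratio of 0.847.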

How the results depend on the processing

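The direction was the same under every alternative for 20 of the 33 tested genes and turned for 13 under at least 1, all of them genes that did not pass the threshold. With 1 library left out, the number of genes higher ran from 66 to 533 and of genes lower from 53 to 990, with 0 to 2 and 0 to 3 of the 37 genes and 1 to 4 and 0 to 1 of the other genes of the route. The calls of ACSL1 and ACADSB were lost without any 1 of the 6 libraries other than siC replicate 3, and that of CROT likewise. In these fits the log2 difference ran from -0.0088 to 0.052 for ACSL4, -0.16 to 0.045 for ACADS, -0.17 to 0.064 for ACAD8, -0.0083 to 0.12 for HADHA, -0.25 to 0.21 for HADHB, -0.25 to 0.46 for ECHS1, -0.091 to 0.036 for DECR1, -0.014 to 0.16 for ETFA, -0.032 to 0.51 for ETFB, -0.058 to 0.036 for ACOX3, -0.17 to 0.068 for ACAA1, -0.073 to 0.30 for ACAT1 and -0.048 to 0.24 for CRAT.

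With array weights, whose estimation stopped before it converged, 2169 genes were higher and 3245 lower, with 6 and 5 of the 37 and 14 and 10 of the other genes of the route. The median of the 33 tested was then -0.0043, and HADHA (-0.012), HADHB (0.19), ACAT1 (-0.083), ETFA (-0.0043), ETFB (-0.017), ACOX2 (-0.0091) and ECHS1 (0.38) turned. With the trend with GC removed, 467 were higher and 513 lower, 0 of the 37 were lower, 5 and 1 of the others were called, and ACAA1 (0.011), ACOX3 (0.0038), ACAD8 (0.0035) and ECHS1 (0.024) turned. Median centring turned ECHS1 (0.029), DECR1 (0.0091), ACAD8 (0.0094), ACOX3 (0.011) and ACAA1 (0.014), and quantile normalization turned DECR1 (0.031), ECHS1 (0.036) and ACAA1 (0.052). Without a filter 146 were higher and 206 lower, which fits more genes, and at a mean of at least 5 FPKM 1 and 1 of the other genes of the route were called. At a threshold of 0.05, 703 and 1010 were called, with 2 of the 37 higher and 7 and 2 of the others. With voom 1 of the others was lower, and ECHS1 stood at 0.065. With siC replicate 3 and siIGF2BP1 replicate 2 both left out, added after seeing the data, 562 and 1043 were called, with 4 and 3 of the 37 and 6 of the others higher, and ETFB (-0.037), ETFA (-0.015), ECHS1 (0.27), HADHB (0.12) and ACAT1 (-0.031) turned. The causes were not tested.

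Libraries with the same replicate number did not deviate together (r = -0.0263, -0.118 and -0.111 for numbers 1 to 3), no siC library correlated best with its own number (siC replicate 3 did so with siIGF2BP1 replicate 2, r = 0.201), and they share only a number. With the number as a replicate block, 0 genes were called in either direction, among them 0 of the 37 and 0 of the others, IGF2BP1 stood at -2.36 (limma adjusted p = 0.0909) and ECHS1 at 0.064. With the replicate block and the GC correction, 0 were called, IGF2BP1 stood at -2.33 (adjusted p = 0.0564), ECHS1 at 0.099 and ACAD8 at 0.024.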
